A study of Mus musculus with 18 samples.

Results

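The 49 genes described here are imprinted in the mouse, and each was found by its gene symbol among the 25279 genes of a bulk RNA-seq count table. They were followed in mouse embryonic stem cells (ESCs) on the way to mesoderm, in cells labelled parental and in a conditional knockout, called cKO here, of Pou2f1. That gene encodes Oct1, a transcription factor with a POU domain. Undifferentiated cells (day 0) and cells 3 and 6 days into differentiation give 6 groups of 3 libraries. The labels give neither the floxed allele, the Cre driver nor the agent that induced deletion, do not say whether the parental cells carry that allele too, and do not say whether a genotype is 1 clone or whether the 3 libraries of a group are separate cultures. The p-values therefore measure only the spread between these libraries, which may be technical. Of the 49 genes, 48 had enough counts to be tested, among 20267 genes in all, and Kcnq1 did not.

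Imprinted genes are expressed mainly from the copy inherited from 1 parent, because a methylation mark laid down in the egg or the sperm keeps the other copy silent. Most lie in clusters that share an imprinting control region, in which growth factors, growth inhibitors and long noncoding RNAs are interleaved. Paternally expressed genes such as Igf2, Peg10 and Mest tend to promote growth of the fetus and placenta, and maternally expressed genes such as H19, Phlda2, Igf2r and Grb10 tend to restrain it. The counts used here sum both copies of a gene, so they give its RNA level and do not show which allele was transcribed. In bulk samples, fewer expressing cells and less RNA per cell cannot be told apart.

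Library totals ran from 13704958 to 26995420 counts. Levels are CPM, read counts scaled to a common library size, and differences are log2 fold changes of cKO over parental ± SE, called at a Benjamini-Hochberg adjusted p under 0.05 over all tested genes. Pou2f1 lay between 123 and 142 CPM in the 9 parental libraries and between 62.2 and 95.4 CPM in the 9 cKO libraries. The day 0 libraries carry another number prefix in their titles than the later ones, whose meaning the labels do not give. They also hold almost no RNA without a poly(A) tail. Rn7sk, a small nuclear RNA of that kind chosen after its values were seen, was at most 11.3 CPM at day 0 and at least 6745 CPM later. A change from day 0 to day 3 therefore cannot be told apart from a change in library preparation, whereas genotypes are compared within a day. The same limit holds for a genotype effect that differs between day 0 and the later days. Replicate 2 of the cKO day 6 group stood apart. Its summed trophoblast marker level was 3680 CPM, and the lowest cKO day 6 library was at 643 CPM. The parental day 6 libraries lay between 226 and 257 CPM. Of the 9 listed markers, 7 were in the counts. Most of the replicate 2 sum was Krt8 (1912 CPM) and Krt18 (1568 CPM), named after their values were seen. Gata3 was at 14.2 CPM there, against 2.07 to 2.44 CPM in parental day 6 libraries. Elf5 was at 0.783 against 0.778 to 0.887 CPM. Whether replicate 2 held trophoblast was not tested. For some results that rest on this library, but not for all, the value without it is also given. Replicates 1 and 2 of the cKO day 0 group were the closest pair, yet differed by more than sampling noise (chi-square per degree of freedom 1.23), and were counted as 2 libraries.

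Imprinted genes were called in both directions at each day. At day 0, 12 were higher and 13 lower in cKO cells of 48 tested, beside 31.6% of all tested genes called at that day (15.1% higher and 16.5% lower). At day 3, 6 were higher and 15 lower, beside a background of 15.7% (6.32% higher and 9.39% lower). At day 6, 13 were higher and 15 lower, beside 45.6% of all genes called (19.9% higher and 25.7% lower). The libraries of the genotypes did not overlap for 35 of the 48 members at day 0, 30 at day 3 and 29 at day 6, against 52.4%, 40.1% and 51.5% of all tested genes. The median log2 fold change of the 48 genes was 0.0035 at day 0, -0.076 at day 3 and -0.028 at day 6, against 0, -0.0046 and -0.091 over all tested genes. Without Rtl1, which had no count in any cKO day 0 library, the day 0 median was 0.012. Over the 3 days, 6 tested genes were called at none, 17 at 1 day, 18 at 2 days and 7 at all 3, and 12 genes were called in opposite directions at different days. Only Phlda2 and Copg2, lower, and Zdbf2, higher, were called in 1 direction at all 3 days.

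**Figure D1:**
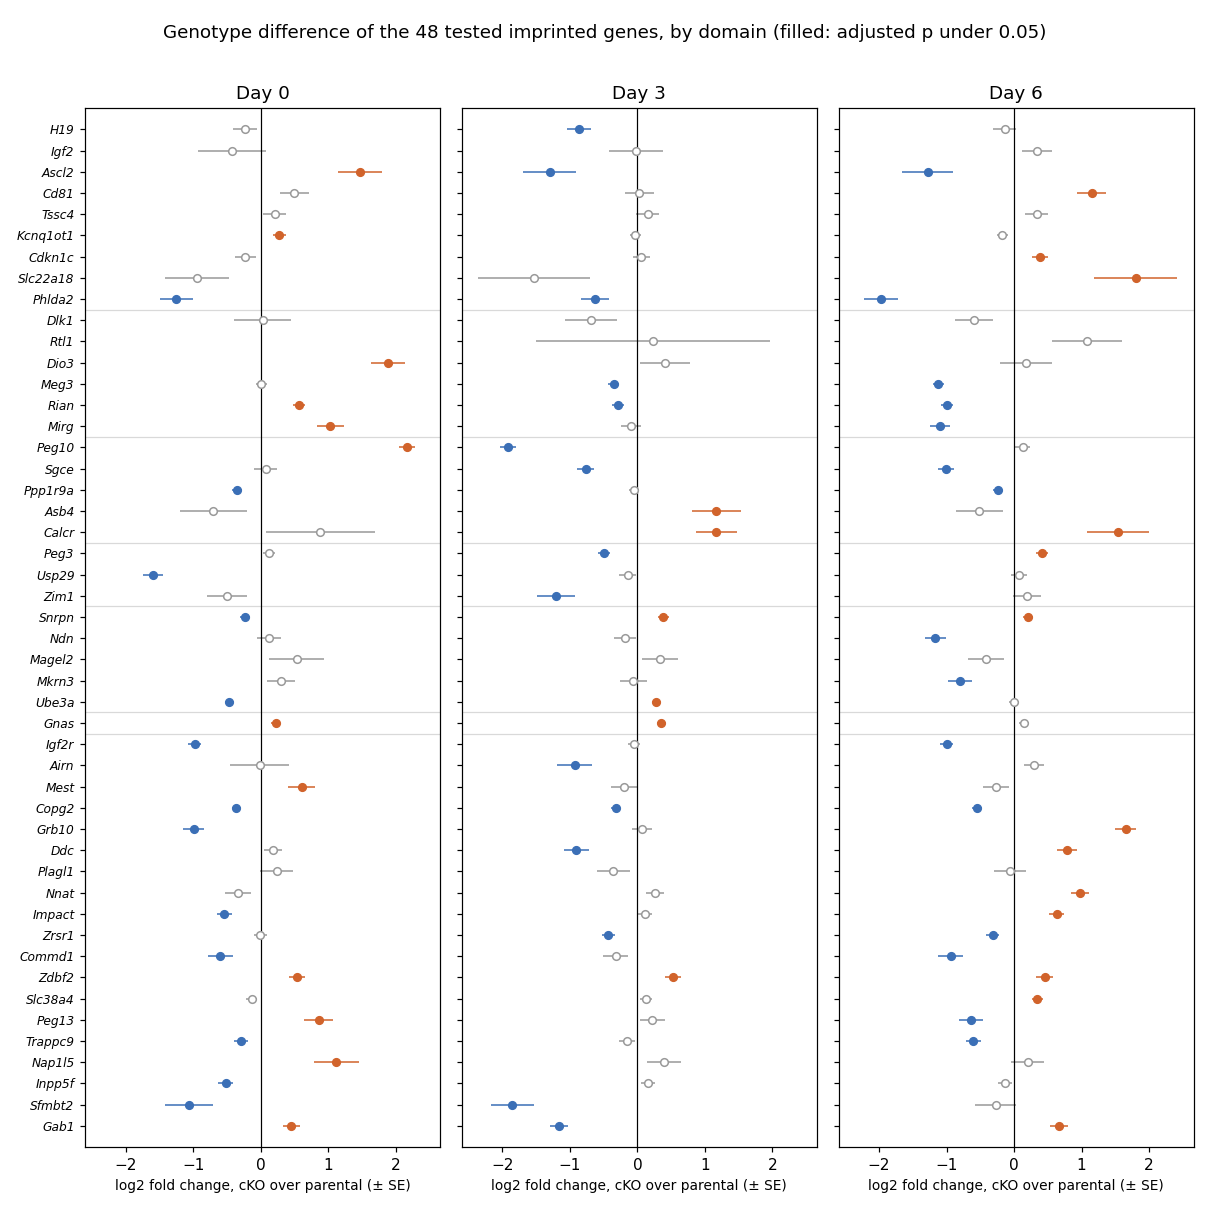
Log2 fold change of cKO over parental (x axis, ± SE, 3 libraries a group) for the tested imprinted genes at days 0, 3 and 6, ordered by domain (grey lines). Filled points have an adjusted p under 0.05 (orange higher, blue lower); Peg10 moves from 2.17 at day 0 to -1.92 at day 3, and Rtl1 is not drawn at day 0, where its cKO libraries are at 0.

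The domain of H19 and Igf2 on chromosome 7 joins a noncoding RNA read from the maternal copy to a growth factor read from the paternal copy. H19 (chr7:142575529-142578143, minus strand, GRCm38) was at 71.2, 71.2 and 70.0 CPM in the parental day 0 libraries and 54.9, 59.6 and 66.1 CPM in cKO, a difference of -0.23 ± 0.18 that was not called (adjusted p = 0.364). At day 3 the parental libraries held 74.1, 73.9 and 81.5 CPM of H19, and the cKO libraries held 35.5, 54.8 and 36.7 CPM. All cKO libraries lay below all parental ones, and H19 was lower in cKO at that day (-0.86 ± 0.18, adjusted p = 0.00365). By day 6 H19 had the highest level per length of the 49 genes in both genotypes, 2193 RPKM (read counts scaled by gene length and library size) in parental and 1987 in cKO cells. There the parental libraries stood at 5213, 5575 and 5394 CPM and the cKO libraries at 5958, 3416 and 5289 CPM. The groups overlapped and the difference was not called (-0.14 ± 0.17, adjusted p = 0.527), and H19 alone took 16.4% to 25.5% of the counts of all 49 genes in each day 6 library.

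Igf2 (chr7:142650766-142666816, minus strand), which encodes insulin-like growth factor 2, stayed between 0.689 and 3.04 CPM at days 0 and 3. At day 6 the parental libraries reached 164, 176 and 166 CPM and the cKO libraries 234, 184 and 222 CPM. Every cKO library was above every parental one, but the difference was not called (0.34 ± 0.22, adjusted p = 0.22). Without cKO day 6 replicate 2 it was 0.43 with an adjusted p of 0.0405. H19 exceeded Igf2 by 5.0 ± 0.020 on the log2 scale of CPM in the parental day 6 libraries (SD, n = 3) and by 4.49 ± 0.24 in the cKO ones, and the 2 sets of ratios did not overlap. Igf2 shares 64.5% of its exon bases with Gm49394, a readthrough gene model on the same strand, so reads of that stretch may not have been counted for either.

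Further along, chromosome 7 holds the genes around Kcnq1ot1, the paternally expressed antisense RNA that silences its neighbours. Phlda2, a pleckstrin-homology protein that limits growth of the placenta, was lower in cKO at each day. At day 0 its parental libraries held 6.36, 7.88 and 6.86 CPM and its cKO libraries 2.25, 2.59 and 3.94 CPM (-1.25 ± 0.24, adjusted p = 0.000625). By day 6 the parental libraries held 5.07, 7.17 and 5.76 CPM and the cKO libraries 1.02, 2.39 and 1.18 CPM (-1.97 ± 0.25, adjusted p = 5.89e-06). The genotypes did not overlap at any of the 3 days. By day 3 the smaller difference (-0.63 ± 0.21, adjusted p = 0.0469) was no longer called when any 1 of the 6 libraries was left out (adjusted p 0.0914 to 0.132).

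Ascl2, a basic helix-loop-helix factor that the spongiotrophoblast needs, changed direction between days. Its parental day 0 libraries held 1.81, 1.74 and 2.59 CPM and its cKO ones 4.12, 5.80 and 7.01 CPM (1.47 ± 0.32, adjusted p = 0.00166). At day 3 the parental libraries held 2.28, 1.17 and 1.38 CPM and the cKO libraries 0.394, 0.991 and 0.583 CPM (-1.30 ± 0.39, adjusted p = 0.027). At day 6 the values were 1.27, 2.10 and 1.31 CPM against 0.462, 0.921 and 0.567 CPM (-1.28 ± 0.38, adjusted p = 0.00937). The cKO libraries were thus all above the parental ones at day 0 and all below them later. The day 3 call of Ascl2 was lost without parental replicate 1 (-1.0), cKO replicate 1 (-1.0) or cKO replicate 3 (-1.24), and the day 6 call without parental replicate 2 (-0.98).

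Cd81, a tetraspanin, was the largest called gain of this stretch at day 6 among genes above 1 CPM. Its parental libraries held 117, 126 and 120 CPM and its cKO libraries 196, 420 and 192 CPM (1.15 ± 0.22, adjusted p = 0.000709). Replicate 2 carried the highest value, and without it Cd81 was still called with a difference of 0.68 (adjusted p = 6.12e-13). Cdkn1c, the cyclin-dependent kinase inhibitor p57, rose from 4.08 to 5.62 CPM in parental day 0 libraries to 61.7 to 66.3 CPM at day 6, where cKO libraries held 65.9 to 91.4 CPM (0.39 ± 0.12, adjusted p = 0.0108, with 1 cKO library inside the parental range). Slc22a18, an organic cation transporter, stayed under 1 CPM at day 6, and its call there (1.80 ± 0.62, adjusted p = 0.0235) was lost without parental replicate 2 (1.32), parental replicate 3 (1.52) or cKO replicate 2 (1.32), and was 3.12 without parental replicate 1. Tssc4 was called at no day. Kcnq1ot1 was at 9.32 to 13.6 CPM at day 0 and 554 to 628 CPM at day 3; its day 0 difference of 0.27 ± 0.096 (adjusted p = 0.0367) was lost without parental replicate 2 or 3 or cKO replicate 1 or 2 (0.20 to 0.27). Kcnq1, the potassium channel gene it overlaps on the other strand, was at most 0.296 CPM in any library.

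**Figure D2:**
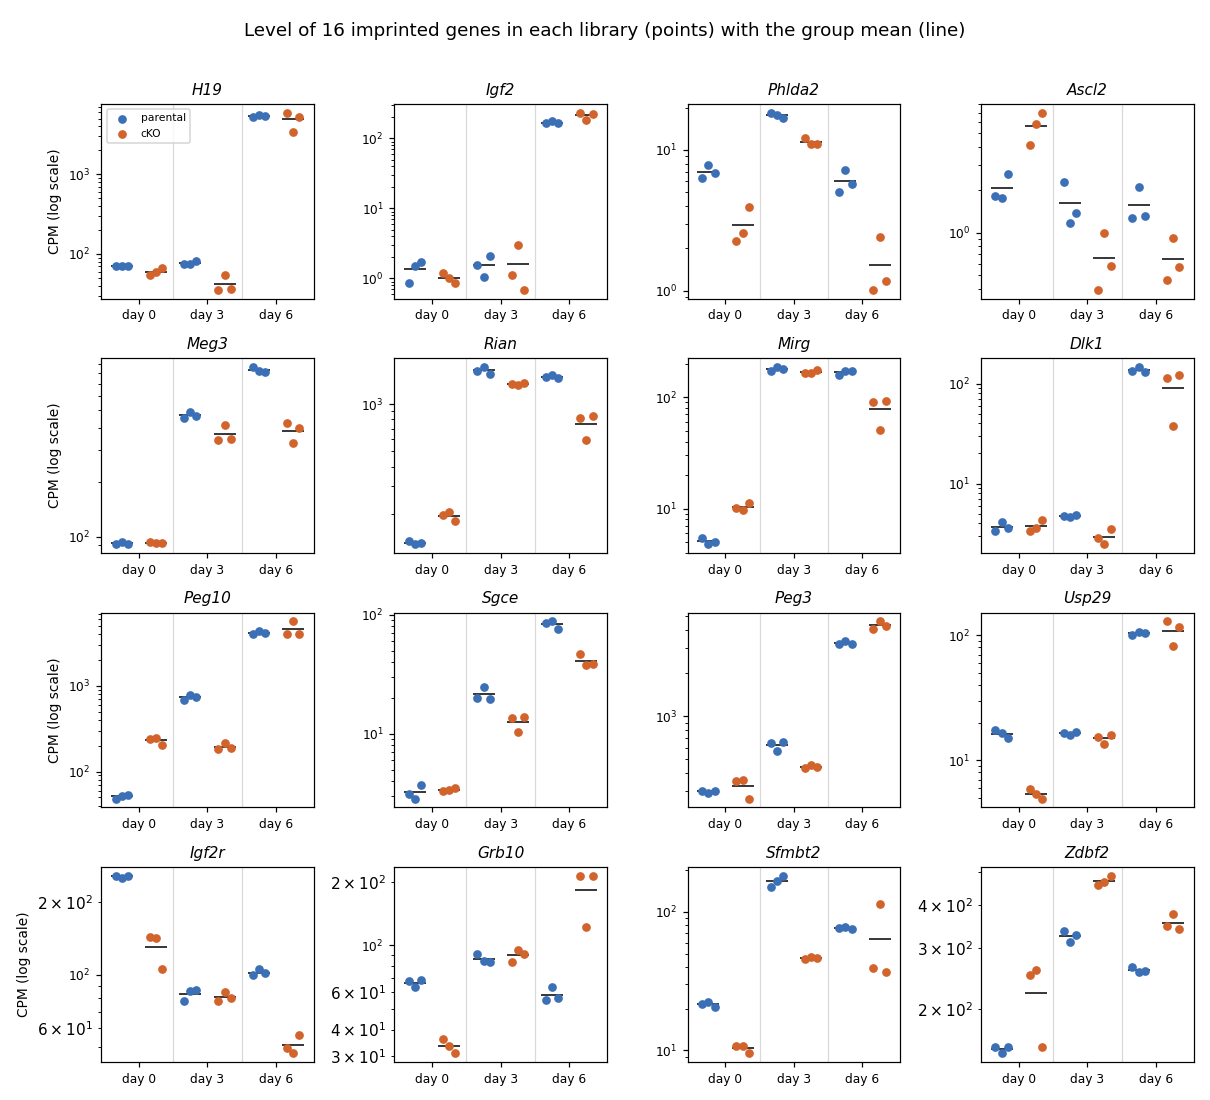
Level of 16 imprinted genes in each of the 18 libraries (points, CPM on a log axis) with the mean of each group of 3 (line), parental in blue and cKO in orange. Peg10 is above the parental libraries in cKO at day 0 and below them at day 3, and Meg3, Rian and Mirg are below them at day 6.

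The 3 maternally expressed noncoding RNAs of the Dlk1-Meg3 domain were all lower in cKO cells at day 6, by about 2-fold. Meg3, Rian and Mirg follow each other on the plus strand of chromosome 12 over 208.5 kb. Meg3 is a long noncoding RNA, Rian hosts small nucleolar RNAs and Mirg hosts microRNAs, and all are read from the maternal copy. The RefSeq promoter window of Meg3 (chr12:109540746-109541045, plus strand, GRCm38.p6, 250 bases before to 50 after the start) is shown because Meg3 begins this stretch. Capitals mark the cAMP response element TGACGTCA, a motif that reads the same on both strands and that 1.79% of all 32851 RefSeq windows hold.

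Meg3: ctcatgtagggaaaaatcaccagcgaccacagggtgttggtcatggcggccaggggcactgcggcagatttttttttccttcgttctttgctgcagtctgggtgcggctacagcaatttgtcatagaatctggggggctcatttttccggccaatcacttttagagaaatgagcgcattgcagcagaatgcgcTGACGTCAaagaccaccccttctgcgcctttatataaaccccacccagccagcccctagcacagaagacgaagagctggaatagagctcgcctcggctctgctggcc

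Meg3 (chr12:109541001-109571726) was not called at day 0, with 91.1, 93.6 and 91.6 CPM in parental and 94.2, 92.2 and 92.3 CPM in cKO libraries (0.012 ± 0.085, adjusted p = 0.969). By day 3 the parental libraries held 451, 492 and 466 CPM and the cKO libraries 342, 415 and 349 CPM, a difference of -0.35 ± 0.083 (adjusted p = 0.00632) that was -0.29 without cKO replicate 1 (adjusted p = 0.0524). By day 6 the parental libraries held 868, 827 and 810 CPM of Meg3 and the cKO libraries 426, 329 and 401 CPM. Every cKO library was well below every parental one at that day (-1.12 ± 0.084, adjusted p = 1.2e-08). Between days 3 and 6 Meg3 rose by 0.83 ± 0.083 in parental cells (adjusted p = 5.14e-08), and its change in cKO cells was 0.064 ± 0.083 (adjusted p = 0.509). The difference between those 2 time changes was -0.77 ± 0.12 (adjusted p = 0.000128).

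Rian and Mirg were higher in cKO at day 0 and lower at day 6. Rian held 135, 129 and 130 CPM in parental and 198, 205 and 180 CPM in cKO day 0 libraries (0.57 ± 0.095, adjusted p = 0.000142). At day 6 it held 1480, 1528 and 1468 CPM in parental and 820, 591 and 835 CPM in cKO libraries (-0.99 ± 0.094, adjusted p = 1.91e-07). At day 3 the Rian difference was smaller (-0.29 ± 0.093, adjusted p = 0.0416), and it was lost with any 1 of the 6 libraries left out (adjusted p 0.0627 to 0.167). Mirg held 5.42, 4.78 and 5.0 CPM in parental and 10.1, 9.64 and 11.2 CPM in cKO day 0 libraries (1.03 ± 0.20, adjusted p = 0.000986). At day 6 it held 160, 174 and 171 CPM against 91.4, 50.8 and 93.1 CPM (-1.10 ± 0.15, adjusted p = 2.9e-05). At day 6 cKO replicate 2 was the lowest library for each of the 3 RNAs, and without it the differences were still called, with values no nearer to 0 than -1.01 for Meg3, -0.85 for Rian and -0.87 for Mirg over all libraries left out in turn.

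The reads of the stretch between the start of Meg3 and the end of Mirg moved with these RNAs. Of the 62 other gene models there, chosen after their values were seen, 48 were tested and 40 were lower in cKO at day 6, 0 were higher and 8 were not called, with a median log2 fold change of -1.28. At day 3 the same 48 had a median of -0.22, and edgeR called 0 of them. At day 0 the 62 models summed to at most 1.27 CPM in any library, so no difference was detectable there, and the 48 passed the filter on low counts through the later days. Models near the floor may have passed through the parental day 6 group alone, such as Mir337 (0.611 CPM in parental and 0.171 CPM in cKO at day 6). The count of lower models and their median can therefore lean towards lower. The sum given below takes all 62 models, without that filter. B830012L14Rik, a noncoding gene model, held 174, 169 and 170 CPM in parental and 75.7, 55.1 and 78.6 CPM in cKO day 6 libraries. Summed over the 62 models, the parental day 6 libraries held 404 to 408 CPM and the cKO ones 132 to 191 CPM. Most of that sum is B830012L14Rik and Gm37899, the latter at a day 6 mean of 145 CPM in parental and 63.2 CPM in cKO. It therefore says little about the other models. The microRNA models alone summed to 69.6 to 74.3 CPM in parental and 20.5 to 34.9 CPM in cKO day 6 libraries. Some of the 62 models lie inside introns or exons of Meg3, Rian and Mirg and may carry reads of the same transcripts. Most lie between these annotated genes, such as B830012L14Rik, 154.6 kb from the Meg3 start. Whether the models are independent of the 3 RNAs was not tested, and they are not taken as such. Members aside, 61 tested genes lay within 500 kb of a member of the domain, and 40 were lower and 2 higher at day 6. Their median was -1.16. Over all tested genes, 25.7% were lower and 19.9% higher at that day. The 48 tested models of the stretch, with their 40 lower calls, are among these 61, so no gene outside the stretch was called lower.

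**Figure D3:**
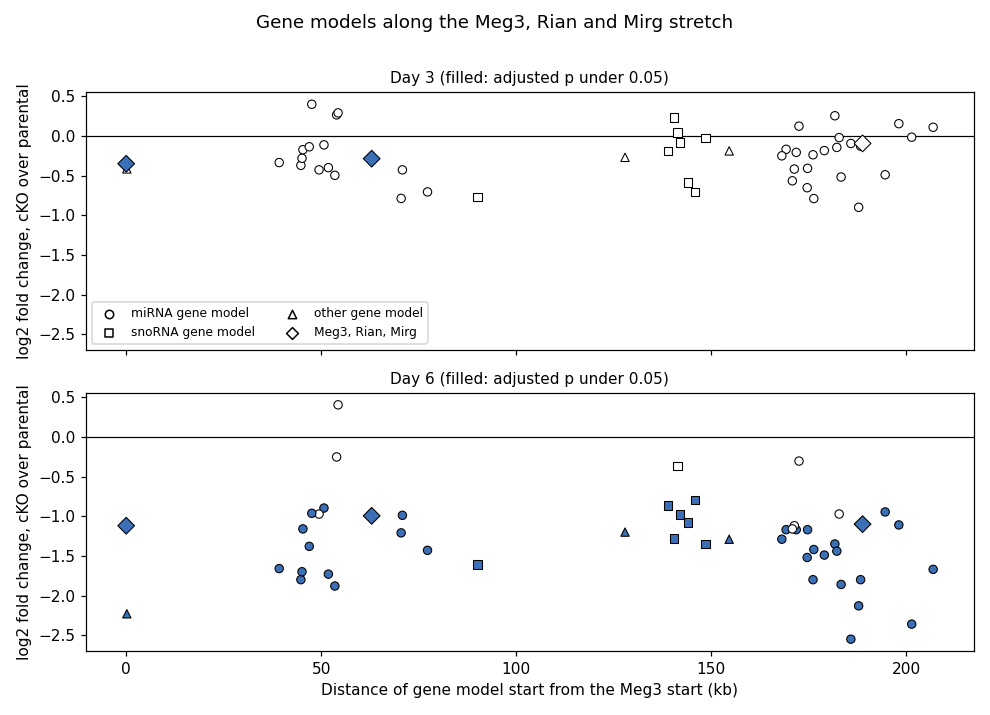
Log2 fold change of cKO over parental for the tested gene models of the stretch from Meg3 to Mirg (y axis) by distance from the Meg3 start (x axis, kb) at days 3 and 6; filled symbols have an adjusted p under 0.05. At day 6, 40 of the 48 models that are no members are filled and below 0, and at day 3 none is filled.

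The stretch holds 54 microRNA hairpins in RefSeq, with 105 mature sequences. Their 97 different seeds (bases 2 to 8, which pair with targets) include 8 that 2 mature sequences share. The library type does not measure mature microRNAs, so counts on a microRNA gene model stand for longer transcripts over it. Of these, 6 hairpins lie within Rtl1 on the opposite strand, and 1 mature arm of each, picked by hand, is shown because, in the mouse, microRNAs of this group are known to cleave the Rtl1 transcript. Seeds are in capitals, and the last pair shares its seed.

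miR-431-5p: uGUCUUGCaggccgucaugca
miR-433-3p: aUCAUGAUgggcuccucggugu
miR-127-3p: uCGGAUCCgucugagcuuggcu
miR-434-3p: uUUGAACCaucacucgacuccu
miR-432: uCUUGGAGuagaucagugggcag
miR-136-5p: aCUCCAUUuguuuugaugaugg
miR-1193-5p: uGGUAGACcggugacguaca
miR-379-5p: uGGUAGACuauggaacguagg

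Of the gene models for these sequences, Mir433 was at 5.66, 6.93 and 4.01 CPM in parental and 3.28, 1.84 and 3.87 CPM in cKO day 6 libraries (-0.90 ± 0.26, adjusted p = 0.00873). Mir127 was at 2.54, 3.18 and 2.32 CPM against 0.509, 0.691 and 1.23 CPM (-1.73 ± 0.32, adjusted p = 0.000347). Mir434 (-1.88), Mir1193 (-1.17) and Mir379 (-1.29, adjusted p = 0.0407, at a mean of 1.03 CPM in parental and 0.417 CPM in cKO) were also lower, and Mir431 (-0.97, adjusted p = 0.103), Mir432 (-0.25, adjusted p = 0.601) and Mir136 (0.40, adjusted p = 0.593) were not called. Rtl1 itself, a retrotransposon-derived gene that the placenta needs, was under 1 CPM until day 3. At day 6 its parental libraries held 1.56, 2.13 and 2.13 CPM and its cKO libraries 5.09, 0.737 and 6.52 CPM, so that 2 cKO libraries were above the parental ones and replicate 2 was below them. With all libraries the difference of Rtl1 was not called (1.08 ± 0.52, adjusted p = 0.105), and without cKO replicate 2 it was 1.58 (adjusted p = 2.7e-06).

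The paternally expressed Dlk1 and Dio3 were not called at day 6. Dlk1 (chr12:109452823-109463336), a transmembrane protein related to Notch ligands, was at 2.48 to 4.89 CPM at days 0 and 3. At day 6 its parental libraries held 134, 146 and 132 CPM and its cKO libraries 113, 38.0 and 121 CPM, all cKO values below the parental ones. The difference was not called (-0.60 ± 0.28, adjusted p = 0.103); it was -0.23 without cKO replicate 2 (adjusted p = 0.00965) and -0.86 without cKO replicate 3 (adjusted p = 0.0345). Dio3, the deiodinase that inactivates thyroid hormone, was higher in cKO at day 0, with 6.42, 6.24 and 5.25 CPM in parental and 20.5, 20.9 and 25.3 CPM in cKO libraries (1.89 ± 0.25, adjusted p = 1.28e-05). It was under 1.2 CPM in every later library and was not called there. Whether Dlk1 and Meg3 differ in their genotype effect was not tested.

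Peg10 had the largest genotype difference of the called genes at day 0 and again at day 3, in opposite directions. It encodes a retrotransposon-derived protein that placental development needs, and lies on chr6:4747306-4760517 (plus strand). At day 0 its parental libraries held 48.4, 52.2 and 53.2 CPM and its cKO libraries 241, 245 and 207 CPM (2.17 ± 0.12, adjusted p = 7.58e-10). By day 3 the parental libraries held 679, 786 and 750 CPM and the cKO libraries 181, 218 and 186 CPM (-1.92 ± 0.12, adjusted p = 2.65e-09). The cKO libraries at day 3 thus stood near the cKO level of day 0, whereas the parental ones had risen. At day 6 the parental libraries held 4069, 4358 and 4145 CPM and the cKO libraries 4047, 5673 and 4038 CPM, overlapping and not called (0.13 ± 0.11, adjusted p = 0.359). From day 0 to day 3 Peg10 rose by 3.85 ± 0.13 in parental cells and its change in cKO cells was -0.24 ± 0.11 (adjusted p = 0.0595), a difference of -4.09 ± 0.17 (adjusted p = 5.38e-11). From day 3 to day 6 it rose by 2.5 ± 0.12 in parental and 4.55 ± 0.13 in cKO cells, a difference of 2.05 ± 0.16 (adjusted p = 1.42e-07).

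Sgce, which encodes epsilon-sarcoglycan, starts 99 bases from Peg10 and is read in the opposite direction, also from the paternal copy. It was not called at day 0, with 3.12, 2.87 and 3.71 CPM in parental and 3.29, 3.37 and 3.5 CPM in cKO libraries (0.073 ± 0.17, adjusted p = 0.81). At day 3 it was lower in cKO, with 20.1, 24.6 and 19.8 CPM in parental and 13.5, 10.4 and 13.9 CPM in cKO libraries (-0.77 ± 0.12, adjusted p = 0.000254). By day 6 the parental libraries held 85.5, 87.9 and 75.5 CPM of Sgce and the cKO libraries 47.2, 38.0 and 38.5 CPM (-1.01 ± 0.12, adjusted p = 2.19e-06). The groups overlapped at day 0 and were apart at days 3 and 6. The log2 ratio of Peg10 to Sgce CPM within a library was 3.99 ± 0.18 in parental and 6.09 ± 0.18 in cKO day 0 libraries (SD, n = 3), 5.11 ± 0.12 and 3.96 ± 0.37 at day 3, and 5.66 ± 0.11 and 6.79 ± 0.41 at day 6. The ratios of the genotypes did not overlap at any day, with the cKO ratio above the parental one at days 0 and 6 and below it at day 3.

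Calcr, Asb4 and Ppp1r9a, in the same domain as Peg10, are maternally expressed in some tissues. Calcr, the calcitonin receptor, was at 2.16, 1.96 and 2.76 CPM in parental and 4.51, 7.25 and 3.82 CPM in cKO day 3 libraries (1.17 ± 0.30, adjusted p = 0.0108), with every cKO library higher. That call was lost without parental replicate 2 (1.06) or cKO replicate 2 (0.86). At day 6 Calcr was near the floor, at 0.254, 0.304 and 0.188 CPM in parental and 0.740, 0.322 and 1.23 CPM in cKO libraries. Its day 6 call (1.54 ± 0.45, adjusted p = 0.00966) was lost without cKO replicate 3 (1.02). Asb4, a SOCS-box protein, was at 2.86, 2.22 and 3.06 CPM against 5.14 to 6.92 CPM at day 3 (1.17 ± 0.36, adjusted p = 0.0352), and this was lost with any 1 of the 6 libraries left out (adjusted p 0.0539 to 0.142). Ppp1r9a, the actin-binding protein neurabin, was slightly lower in cKO at days 0 (-0.35 ± 0.077) and 6 (-0.24 ± 0.070). The day 6 call of Ppp1r9a was lost with no filter on low counts (-0.16, adjusted p = 0.104) and with only the day 6 libraries in the fit (-0.17, adjusted p = 0.0995).

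Among the promoter windows of members that RefSeq gives, Asb4 alone holds the octamer ATGCAAAT, the motif that Oct1 and Oct4 are known to bind. Windows were found for 40 of the 49 genes, 63 in all, and both strands were searched. The octamer was in 1 of the 63 member windows (1.59%) and in 1.74% of all 32851 windows. In Asb4 it lies on the minus strand, 69 bases before the start, within chr6:5383301-5383340. The octamer is in capitals.

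Asb4: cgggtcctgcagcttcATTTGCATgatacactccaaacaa

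Peg3 and Usp29 are another pair of divergent paternally expressed genes, and they were called at different days. Peg3, a large zinc-finger protein, lies on the minus strand (chr7:6703892-6730431), and Usp29, a ubiquitin-specific protease, starts 147 bases away on the plus strand. Their shared start region is shown as the RefSeq window of Peg3 (chr7:6730370-6730669, minus strand, GRCm38.p6), with the cAMP response element TGACGTCA in capitals. This motif was in 4 of the 63 member windows, those of Meg3, Peg3, Usp29 and Zdbf2, and the windows of Peg3 and Usp29 overlap.

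Peg3: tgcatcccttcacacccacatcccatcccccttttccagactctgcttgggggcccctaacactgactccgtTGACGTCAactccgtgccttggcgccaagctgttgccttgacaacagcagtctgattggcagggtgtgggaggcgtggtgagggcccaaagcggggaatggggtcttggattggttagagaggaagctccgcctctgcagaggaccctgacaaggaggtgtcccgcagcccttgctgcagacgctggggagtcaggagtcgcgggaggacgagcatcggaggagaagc

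At day 0 Peg3 was at 300, 293 and 302 CPM in parental and 351, 361 and 266 CPM in cKO libraries, overlapping and not called (0.13 ± 0.089, adjusted p = 0.303), and without cKO replicate 3 the difference was 0.26 (adjusted p = 0.00546). Usp29 was lower in cKO at that day, with 17.3, 16.6 and 15.1 CPM in parental and 5.91, 5.41 and 4.94 CPM in cKO libraries (-1.60 ± 0.15, adjusted p = 1.95e-07). At day 3 the pair was the other way round. Peg3 was at 646, 572 and 660 CPM in parental and 433, 457 and 445 CPM in cKO libraries (-0.49 ± 0.089, adjusted p = 0.000652), while Usp29 was at 16.1 to 17.0 against 13.4 to 16.1 CPM and not called (-0.14 ± 0.13, adjusted p = 0.518). At day 6 Peg3 was higher in cKO, with 3178, 3367 and 3201 CPM in parental and 4084, 4601 and 4294 CPM in cKO libraries (0.41 ± 0.088, adjusted p = 0.000907). The Usp29 groups overlapped at day 6 (0.071 ± 0.12, adjusted p = 0.653), and without cKO replicate 2 its difference was 0.24 (adjusted p = 0.00545). The log2 ratio of Peg3 to Usp29 CPM was 4.19 ± 0.12 in parental and 5.90 ± 0.16 in cKO day 0 libraries (SD, n = 3), the widest gap of the 3 days.

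Zim1, a maternally expressed zinc-finger gene beside Peg3, was lower in cKO at day 3. Its parental libraries held 2.22, 1.24 and 2.16 CPM and its cKO libraries 0.613, 0.991 and 0.848 CPM (-1.20 ± 0.28, adjusted p = 0.00601). The groups did not overlap there, and Zim1 was not called at days 0 and 6.

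**Figure D4:**
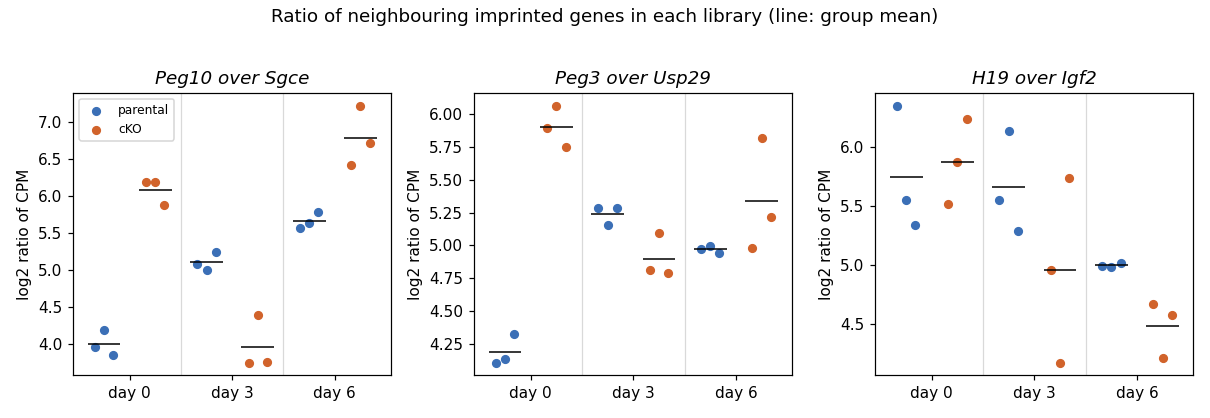
Log2 ratio of CPM within each library (points) for the pairs Peg10 over Sgce, Peg3 over Usp29 and H19 over Igf2, with the group mean (line), parental in blue and cKO in orange. The Peg10 to Sgce ratio is higher in cKO at days 0 and 6 and lower at day 3, and the Peg3 to Usp29 ratio is highest in cKO at day 0.

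In the Snrpn domain of chromosome 7, whose human counterpart is implicated in Prader-Willi and Angelman syndromes, the paternally expressed Ndn and Mkrn3 were lower in cKO at day 6. Ndn, which encodes necdin, was at 93.5, 86.7 and 90.4 CPM in parental and 49, 27.2 and 43.7 CPM in cKO libraries (-1.17 ± 0.15, adjusted p = 1.08e-05). Mkrn3, a makorin ring-finger gene, was at 14.1 to 14.6 CPM against 5.85 to 10.7 CPM (-0.80 ± 0.18, adjusted p = 0.00161). All cKO libraries were below all parental ones for both genes, and neither was called at days 0 and 3. Magel2, a MAGE family member, was called at no day (day 6: -0.41 ± 0.27, adjusted p = 0.224). Summed neural markers were also lower in cKO at day 6, between 420 and 458 CPM in parental and between 99.9 and 168 CPM in cKO libraries. Of these markers, 7 of 8 were lower and none was at 0, beside 25.7% of all tested genes lower at that day. The part of neural cells in the Ndn and Mkrn3 differences was not tested.

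Snrpn (chr7:59982495-60140219, minus strand), a small nuclear ribonucleoprotein gene, was at 139, 145 and 143 CPM in parental and 116, 120 and 127 CPM in cKO day 0 libraries (-0.23 ± 0.079, adjusted p = 0.0289). At day 3 it was at 303, 272 and 293 CPM against 355, 402 and 376 CPM (0.39 ± 0.077, adjusted p = 0.00168). At day 6 the values were 56.7, 57.2 and 58.8 CPM against 60.4, 76.7 and 61.9 CPM (0.20 ± 0.079, adjusted p = 0.0422). The genotypes were apart at each day, with cKO below at day 0 and above later. The day 0 call of Snrpn was lost without any 1 of the parental libraries or of cKO replicates 1 and 2 (-0.20 to -0.24), and the day 6 call without any parental library or cKO replicate 2 (0.09 to 0.22). Snrpn shares exon bases with Gm38393, a gene model on the same strand chosen after its values were seen, so reads may be split between them. Gm38393 was at 60.1, 57.1 and 58.1 CPM in parental and 21.6, 23.7 and 13.8 CPM in cKO day 0 libraries (-1.58 ± 0.12, adjusted p = 4.95e-08). At day 3 it went the other way, at 293.5 to 305.9 CPM in parental and 390.3 to 397.9 CPM in cKO libraries. At day 6 the groups overlapped, at 63.4 to 68.8 CPM against 58.6 to 69.1 CPM.

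Ube3a, an E3 ubiquitin ligase read from the maternal copy in neurons, was lower in cKO at day 0 and higher at day 3. It was at 162, 156 and 162 CPM in parental and 120, 127 and 101 CPM in cKO day 0 libraries (-0.46 ± 0.069, adjusted p = 4.64e-05). At day 3 it was at 301 to 307 CPM against 360 to 378 CPM (0.28 ± 0.068, adjusted p = 0.00769), and at day 6 the groups overlapped (-0.0013 ± 0.068, adjusted p = 0.997). Snhg14, the antisense host RNA of this domain that runs over Ube3a, was chosen after its values were seen and lay at 87.6, 83.1 and 85.8 CPM in parental against 28.0, 32 and 31.3 CPM in cKO day 0 libraries (-1.49 ± 0.088, adjusted p = 1.14e-09). As the strand setting of the counting is not given, reads of Ube3a and Snhg14 over shared bases cannot be told apart.

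Gnas (chr2:174284320-174346744, plus strand), which encodes the stimulatory G protein alpha subunit and several imprinted transcripts, was slightly higher in cKO. At day 0 it was at 181, 184 and 182 CPM in parental and 202, 203 and 232 CPM in cKO libraries (0.22 ± 0.070, adjusted p = 0.0212), a call lost without parental replicate 1 (0.22), parental replicate 3 (0.23) or cKO replicate 3 (0.15). At day 3 it was at 180, 185 and 172 CPM against 230, 231 and 225 CPM (0.35 ± 0.070, adjusted p = 0.00141), with every cKO library higher. By day 6 the parental libraries held 800, 799 and 778 CPM and the cKO libraries 931, 774 and 924 CPM (0.14 ± 0.069, adjusted p = 0.0935), and without cKO replicate 2 the difference was 0.23 (adjusted p = 0.000754). The gene total does not separate the transcripts of Gnas, which differ in the allele they are read from.

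Of the 19 members outside these domains, the growth regulators Igf2r and Grb10 differed by about 2-fold or more. Igf2r, the receptor that takes up and clears IGF2, was at 257, 253 and 258 CPM in parental and 143, 142 and 105 CPM in cKO day 0 libraries (-0.98 ± 0.092, adjusted p = 2.8e-07). By day 3 the genotypes overlapped (-0.047 ± 0.092, adjusted p = 0.81). At day 6 Igf2r was at 99.3, 106 and 101 CPM in parental and 49.6, 47.2 and 56.0 CPM in cKO libraries (-1.0 ± 0.094, adjusted p = 1.79e-07). The cKO libraries were thus below the parental ones at days 0 and 6 and among them at day 3. Airn, the paternally expressed antisense RNA that silences Igf2r, was at 1.66 to 2.05 CPM in parental and 0.496 to 1.23 CPM in cKO day 3 libraries (-0.93 ± 0.26, adjusted p = 0.0186), a call lost without parental replicate 3 (-0.84) or cKO replicate 2 (-0.66). At day 6 Airn had reached 52.1 to 55.2 CPM in parental and 49.4 to 76.3 CPM in cKO libraries (0.29 ± 0.15, adjusted p = 0.127), and without cKO replicate 3 it was 0.46 (adjusted p = 0.0103).

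Grb10, an adaptor that restrains insulin and IGF1 receptor signalling, went from lower to higher. It was at 67.6, 63.6 and 68.9 CPM in parental and 36.1, 33.5 and 31.0 CPM in cKO day 0 libraries (-0.99 ± 0.15, adjusted p = 0.000118). At day 3 the groups overlapped (0.063 ± 0.15, adjusted p = 0.847). At day 6 the parental libraries held 55.4, 63.3 and 56.3 CPM and the cKO libraries 212, 123 and 214 CPM (1.65 ± 0.15, adjusted p = 4.06e-07), all cKO values being far above the parental ones. Grb10 lies on chromosome 11, where the median log2 fold change of 921 genes was -0.38 at day 0, -0.39 at day 3 and -0.49 at day 6. Relative to that median, Grb10 differed by -0.61 at day 0 and 2.13 at day 6, both still called.

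The other members on chromosome 11 are Ddc, Zrsr1 and Commd1. Ddc, aromatic amino acid decarboxylase, was at 2.69 to 3.43 CPM in parental and 1.23 to 2.07 CPM in cKO day 3 libraries (-0.90 ± 0.19, adjusted p = 0.00265), and at 5.28 to 6.64 CPM against 7.83 to 11.5 CPM at day 6 (0.78 ± 0.15, adjusted p = 0.000359). Zrsr1, a splicing factor retrogene, was lower in cKO at day 3 (-0.43 ± 0.098, adjusted p = 0.00492) and day 6 (-0.32 ± 0.098, adjusted p = 0.0127), the day 6 call being lost without cKO replicate 3 (-0.20). Commd1, a copper metabolism gene that overlaps Zrsr1 on the other strand, was lower at day 0 (-0.60 ± 0.18, adjusted p = 0.02) and day 6 (-0.94 ± 0.19, adjusted p = 0.000724), the day 0 call being lost without parental replicates 1 or 2 or cKO replicates 1 or 2 (-0.51 to -0.57). Against the chromosome 11 median, Zrsr1 was higher in cKO at day 0 (0.37, adjusted p = 0.00606) and Ddc too (0.56, adjusted p = 0.00379). By that measure Ddc and Zrsr1 were no longer called at day 3 (-0.51 and -0.036), nor Commd1 at day 0 (-0.22), nor Zrsr1 (0.17) and Commd1 (-0.45) at day 6.

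Sfmbt2, a Polycomb-group gene that the placenta reads from the paternal copy, was the second largest called loss at day 3. It was at 152, 167 and 182 CPM in parental and 45.4, 47.3 and 46.3 CPM in cKO libraries (-1.85 ± 0.31, adjusted p = 0.00111). At day 0 it was at 21.4, 22.5 and 20.7 CPM against 10.8, 10.7 and 9.57 CPM (-1.06 ± 0.35, adjusted p = 0.035), lost with any 1 of the 6 libraries left out (adjusted p 0.0691 to 0.11). By day 6 the parental libraries held 76.6, 77.2 and 75.5 CPM and the cKO libraries 39.2, 113 and 37.1 CPM, so that replicate 2 stood above and the other cKO libraries below the parental ones. With all libraries Sfmbt2 was not called at day 6 (-0.27 ± 0.31, adjusted p = 0.5), and without cKO replicate 2 it was -1.0 (adjusted p = 4.19e-15). Gab1, a docking protein of receptor tyrosine kinases read from the paternal copy in placenta, was at 109, 127 and 139 CPM in parental and 50.4, 60.5 and 57.3 CPM in cKO day 3 libraries (-1.16 ± 0.14, adjusted p = 1.78e-05). It was higher in cKO at day 0 (0.46 ± 0.13, adjusted p = 0.0137) and at day 6 (0.67 ± 0.13, adjusted p = 0.000644), the latter being 0.42 without cKO replicate 2.

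Zdbf2, a zinc-finger gene read from the paternal copy, was higher in cKO at all 3 days. Its parental day 0 libraries held 149 to 155 CPM, and 2 cKO libraries were at 251 and 260 CPM with the third at 155 CPM (0.54 ± 0.12, adjusted p = 0.00309). At day 3 it was at 313 to 337 CPM against 456 to 487 CPM (0.53 ± 0.12, adjusted p = 0.00649), and at day 6 at 256 to 264 CPM against 340 to 377 CPM (0.46 ± 0.12, adjusted p = 0.00624). Copg2, a coat protein gene that overlaps Mest on the other strand, was lower at each day (-0.36 ± 0.067, -0.32 ± 0.068 and -0.55 ± 0.068), with the genotypes apart each time. Mest, a hydrolase family gene and the third of the 49 per length at day 6, was higher in cKO at day 0 (0.60 ± 0.20, adjusted p = 0.0354), lost with any 1 of the 6 libraries left out (adjusted p 0.0688 to 0.0889). At day 6 Mest was at 2345 to 2509 CPM in parental and 2406, 1162 and 2464 CPM in cKO libraries, with replicate 2 alone lower, and was not called (-0.27 ± 0.20, adjusted p = 0.282).

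Among the remaining members, Nnat, a small membrane protein of neurons and endocrine cells, was at 230, 243 and 234 CPM in parental and 546, 329 and 513 CPM in cKO day 6 libraries (0.97 ± 0.13, adjusted p = 2.04e-05). Impact, an inhibitor of the kinase GCN2, was lower at day 0 (-0.54 ± 0.11, adjusted p = 0.00082) and higher at day 6 (0.63 ± 0.11, adjusted p = 0.000122; 0.42 without cKO replicate 2). Slc38a4, an amino acid transporter, was higher at day 6 (0.34 ± 0.084, adjusted p = 0.00261). Nap1l5, a nucleosome assembly protein family gene, was higher at day 0, at 0.810, 0.956 and 0.556 CPM in parental and 1.65, 1.33 and 2.06 CPM in cKO libraries (1.12 ± 0.33, adjusted p = 0.0142), lost without parental replicate 3 (0.94) or cKO replicate 3 (0.93). Inpp5f, an inositol phosphatase, was lower at day 0 (-0.52 ± 0.11, adjusted p = 0.00155). Peg13, a noncoding RNA inside an intron of Trappc9, was higher at day 0 (0.86 ± 0.21, adjusted p = 0.00398) and lower at day 6 (-0.64 ± 0.18, adjusted p = 0.00626). At day 6 the cKO libraries held 22.1, 11.5 and 20.6 CPM of Peg13 against 27.1 to 28.9 CPM in parental ones; without cKO replicate 2 the difference was -0.39 (adjusted p = 0.00161), and with only the day 6 libraries in the fit it was -0.57 and not called (adjusted p = 0.0903). Trappc9, a vesicle transport subunit, was lower at day 6 (-0.60 ± 0.11, adjusted p = 0.000187) and at day 0 (-0.29 ± 0.11, adjusted p = 0.0432), the latter lost with any 1 of the 6 libraries left out (adjusted p 0.0819 to 0.138). Plagl1, a zinc-finger factor, was called at no day with all libraries. At day 6 it was at 224 to 235 CPM in parental and 278, 114.5 and 270 CPM in cKO libraries, with replicate 2 alone lower.

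Members were grouped by the allele read where they are imprinted, which for some is only placenta or brain. The 19 tested maternally expressed genes held 3 higher and 7 lower calls at day 0. They held 3 and 7 at day 3, and 4 and 10 at day 6. Over all tested genes, 15.1% were higher and 16.5% lower at day 0, 6.32% and 9.39% at day 3, and 19.9% and 25.7% at day 6. Their median log2 fold changes were -0.29, -0.16 and -0.51. The 27 paternally expressed genes held 8 higher and 5 lower calls at day 0, 2 and 8 at day 3, and 8 and 5 at day 6, with medians of 0.12, -0.059 and 0.13. Of the maternally expressed genes, 10 tested ones are broadly imprinted. These held 2 higher and 2 lower calls at day 0, 1 and 5 at day 3, and 2 and 5 at day 6. The medians of these 10 were -0.37, -0.32 and -0.75. The 24 broadly imprinted paternally expressed genes held 7 and 4, 2 and 6, and 6 and 5, with medians of 0.098, -0.044 and 0.10. Among the lower genes at day 6, Meg3, Rian and Mirg come from 1 stretch, and no test of a difference between the allele groups was made.

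Markers of other cells differed between genotypes, beside 31.6%, 15.7% and 45.6% of all tested genes called at days 0, 3 and 6. The ESC list at day 0 (33.3% called) and the mesoderm list at day 6 (37.5%) were near or below these shares. Summed fibroblast and feeder markers, 12 genes of which none was at 0 in these groups, were between 941 and 1006 CPM in parental and between 298 and 310 CPM in cKO day 0 libraries, with 6 lower and 0 higher. At day 6 they were between 1109 and 1184 CPM in parental and between 1669 and 1722 CPM in cKO libraries, with 8 higher. The extraembryonic endoderm list was at 218 to 231 CPM in parental and 480 to 722 CPM in cKO day 6 libraries. Of its genes, 6 of 11 were higher, and Hnf4a was at 0 in cKO. Most of that sum is Lamb1, named after its values were seen, at 167.5 to 182.2 CPM in parental and 353.6 to 601.2 CPM in cKO libraries. Of 7 trophoblast markers, 5 were higher in cKO at day 6. Summed ESC markers were 7111 to 7243 CPM in parental and 8682 to 9200 CPM in cKO day 0 libraries, with 3 of 9 higher. Later the ESC list was lower in cKO, with 5 of 9 lower and 0 higher by edgeR at day 3. At day 6, 6 of 9 were lower and 0 higher, and the sums were 244 to 252 CPM in parental and 64.8 to 65.3 CPM in cKO libraries. Most of the parental day 6 sum is Sox2, named after its values were seen. Sox2 was at 183 to 186 CPM in parental and 11.15 to 40.1 CPM in cKO day 6 libraries. In parental day 3 libraries it was at 28.8 to 41.9 CPM. Mesoderm markers, which the protocol should induce, were 283 to 365 CPM in parental and 36.9 to 81.9 CPM in cKO day 3 libraries, with 2 of 8 lower. Most of that sum is T (Brachyury), named after its values were seen, at 265 to 347 CPM in parental and 26.4 to 71.9 CPM in cKO libraries, and at day 6 the list had 2 higher and 1 lower. The part of these cells in the differences of imprinted genes was not tested.

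In cKO cells, 7 of 18 genes that keep or remove imprinting marks were higher and 2 lower at day 0; the counts were 4 and 5 at day 3, and 1 and 9 at day 6, with median differences of 0.18, 0.11 and -0.26. Over all tested genes, 31.6%, 15.7% and 45.6% were called at the 3 days. Dppa3, an oocyte protein that shields methylation in the zygote, was lower at each day (-2.32 ± 0.16 at day 0, adjusted p = 1.02e-08). Zfp57, the zinc-finger protein that binds methylated TGCCGC in imprinting control regions, was higher at day 0, at 507 to 524 CPM in parental and 712 to 742 CPM in cKO libraries (0.49 ± 0.063, adjusted p = 9.74e-06). It was lower at day 3, at 47.3 to 53.9 CPM against 30.1 to 33.9 CPM (-0.63 ± 0.066, adjusted p = 2.74e-06). Trim28, the corepressor that Zfp57 recruits, was higher at day 0 (0.59 ± 0.086) and day 3 (0.37 ± 0.086). Dnmt3b, a de novo methyltransferase, was higher at each day (0.87, 0.63 and 0.58), and Dnmt3l, its cofactor, was higher at day 0 (0.95 ± 0.15) and lower at day 6 (-2.63 ± 0.28). At day 3 Dnmt3l was at 36.7 to 43.0 CPM in parental and 14.2 to 20.8 CPM in cKO libraries. Tet2, which oxidises methylated cytosine, was lower at day 6 (-1.94 ± 0.15). At day 0 Tet2 was at 181.8 to 188 CPM in parental and 253.7 to 344.5 CPM in cKO libraries. At day 3 it was at 31.0 to 42.1 CPM against 19.5 to 26.9 CPM. Dnmt1, the maintenance methyltransferase, was not called at day 0 (-0.021 ± 0.085, adjusted p = 0.914) and was lower at day 6 (-0.57 ± 0.085). TGCCGC was found in 14 of the 63 member windows (22.2%) and in 11.6% of all windows, and the files hold no methylation values.

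The IGF2 pathway list of 11 genes had 2 higher and 4 lower calls at day 0, 2 and 1 at day 3, and 5 and 5 at day 6, with medians of -0.27, 0.10 and 0.036, beside the same 31.6%, 15.7% and 45.6% of all genes. Igfbp4, an IGF-binding protein, was at 62.3 to 71.4 CPM in parental and 7.13 to 7.45 CPM in cKO day 0 libraries (-3.19 ± 0.20, adjusted p = 1.47e-08). Igf2bp1, a binding protein of the Igf2 mRNA, was lower at days 0 (-0.38 ± 0.060) and 6 (-0.44 ± 0.059). Irs1, a substrate of the receptors that IGF2 activates, was higher at day 6 (0.72 ± 0.096, adjusted p = 1.07e-05).

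Over time most of the 48 genes changed in both genotypes, as most genes did. From day 0 to day 3, 24 rose and 13 fell in parental cells (75.5% of all genes called, 41.1% higher and 34.4% lower) and 26 rose and 14 fell in cKO cells (76.0% of all, 41.0% and 35.0%). From day 3 to day 6, 27 rose and 11 fell in parental cells (65.3% of all, 32.6% and 32.7%) and 28 rose and 11 fell in cKO cells (66.1% of all, 31.3% and 34.8%). The largest parental rises from day 3 to day 6 include Igf2 (6.74 ± 0.31), H19 (6.14 ± 0.21), Rtl1 (5.30 ± 0.93, from under 0.2 CPM), Dlk1 (4.85 ± 0.35), Airn (4.84 ± 0.20) and Mest (3.58 ± 0.22). The 49 genes took 0.302% to 0.337% of a library's counts at day 0, 0.577% to 0.717% at day 3 and 2.10% to 2.57% at day 6. The change from day 0 to day 3 differed between genotypes for 19 members, 8 moving up and 11 down in cKO relative to parental cells, beside 18.6% of all genes (9.47% up and 9.12% down). That from day 3 to day 6 differed for 23, 13 up and 10 down, beside 26.0% of all (12.4% up and 13.6% down).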

How the data were processed

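The authors deposited raw counts per Ensembl gene and library, not normalized, for 18 libraries. Per the submitters' processing notes, Novoalign, DESeq2 1.10.0 and the builds mm10 and GRCm38 were used; no source used here names the counter, the annotation or the strand setting. Coordinates and biotypes come from GENCODE M21 (25234 of 25279 identifiers matched), and sequences from RefSeq (GRCm38.p6).

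In R 4.3.3, genes passing filterByExpr were scaled with TMM factors and a group means model was fitted over the 18 libraries with the robust quasi-likelihood method of edgeR 4.0.16 (biological coefficient of variation 13.5%). Two-sided F tests were adjusted by Benjamini-Hochberg over 20267 genes. Figures used Python 3.11.15 and matplotlib 3.10.9. The steps were tested on simulated data. Alternatives were RLE and total-count scaling, no filter, at least 1 CPM in 3 libraries, DESeq2 1.42.0, the contrast's libraries alone, the median of the same chromosome, and each library left out; 2 were added after seeing the data. The libraries held 13704958 to 26995420 counts each; sampling noise is one part of the spread between replicates.

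The members and gene lists were chosen with earlier results of these data known. All members are named; values per library are given for members called with at least a 2-fold difference and a mean of at least 1 CPM, and for the leading gene of each domain. From the lists on imprint maintenance and the IGF2 pathway, the rule names at most 4 called genes, by lowest adjusted p, and at most 2 abundant genes that were not called; Dnmt3l, Tet2 and other genes outside that choice were named after their values were seen.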

Additional observations from a re-analysis of the deposited data

Results flagged for a closer look

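For these genes the test of the difference itself, the interaction of genotype and day in edgeR, had an adjusted p under 0.05. The genotype effect thus differed between the libraries of these days. From day 0 to day 3 such a difference cannot be told apart from the change in library preparation. The values are the later genotype effect minus the earlier one, as log2 differences. From day 0 to day 3 the effect moved down for 11 genes: Peg10 -4.09, Ascl2 -2.76, Gab1 -1.61, Dio3 -1.48, Mirg -1.12, Ddc -1.09, Rian -0.85, Sgce -0.84, Peg3 -0.62, Zrsr1 -0.42 and Meg3 -0.36. Over the same days it moved up for 8 genes: Asb4 1.87, Usp29 1.45, Grb10 1.05, Igf2r 0.93, Ube3a 0.74, Inpp5f 0.67, Impact 0.65 and Snrpn 0.62. The calls of Asb4, Dio3, Meg3 and Zrsr1 among these were lost when some single libraries were left out, with adjusted p up to 0.123, 0.124, 0.112 and 0.103.

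From day 3 to day 6 the effect moved down for 10 genes: Asb4 -1.68, Phlda2 -1.34, Mirg -1.01, Ndn -0.99, Igf2r -0.95, Peg13 -0.86, Meg3 -0.77, Rian -0.71, Trappc9 -0.45 and Ube3a -0.28. It moved up for 13 genes: Slc22a18 3.33, Peg10 2.05, Gab1 1.83, Ddc 1.68, Grb10 1.58, Sfmbt2 1.58, Zim1 1.40, Airn 1.22, Cd81 1.12, Peg3 0.91, H19 0.72, Nnat 0.71 and Impact 0.52. The calls of Asb4, H19, Peg13, Slc22a18, Trappc9 and Ube3a among these were lost when some single libraries were left out, with adjusted p up to 0.0559, 0.11, 0.0574, 0.085, 0.11 and 0.0953. Without cKO day 6 replicate 2, the values of Sfmbt2, Cd81 and Impact were 0.85, 0.65 and 0.31.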

How the results depend on the processing

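Of 48 tested members, the number called at day 0 ran from 19 to 31 and at day 3 from 19 to 26 over the settings that kept all libraries, and at day 6 from 22 to 28. With 1 library left out it ran from 18 to 21 at day 0, 16 to 17 at day 3 and 25 to 34 at day 6 (34 without cKO day 6 replicate 2, of which 26 were also called with it). For the time changes it then ran from 36 to 37 and 37 to 40 from day 0 to day 3 in parental and cKO cells, and from 35 to 36 and 38 to 43 from day 3 to day 6; for the differences between genotypes it ran from 15 to 19 and 18 to 30. Members called under every library left out numbered 17 of 25 at day 0, 14 of 21 at day 3 and 23 of 28 at day 6. The difference between genotypes from day 0 to day 3 was called for 31 members when only the libraries of the contrast were fitted, instead of 19; the cause was not tested. Relative to the median of chromosome 11, Zrsr1 turned to 0.37 at day 0 and 0.17 at day 6. Without cKO day 6 replicate 2, Plagl1 turned to 0.26 at day 6 and was called. Under RLE scaling Zrsr1 was not called at day 6 (-0.25) and Gnas was (0.21). Summing Gm38393 with Snrpn gave 0.076 at day 6, not called, and with cKO day 0 replicates 1 and 2 summed 19 members were called at day 0; both were chosen after seeing the data. No paired analysis was possible because the labels give the libraries no replicate numbers, which were assigned here in accession order. Genes near or under 1 CPM, such as Ascl2, Slc22a18, Rtl1 and, at day 6, Calcr, rest on few reads. With only the libraries of the contrast, the day 6 calls of Ascl2 (-1.19), Snrpn (0.28) and Zrsr1 (-0.24) were also lost.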
